A study of Homo sapiens with 6 samples.

Results

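The amino acid catabolism enzymes are the 48 genes that encode the main liver enzymes breaking down amino acids, found by symbol in the authors' deposited table of 58037 genes. They were read in differentiated HepaRG cells, a human line labelled as hepatocellular carcinoma cells and bought from a supplier, which forms hepatocyte-like and biliary-like cells in culture and serves as a liver model. In 3 fatty acid samples the medium held palmitate and oleate in a ratio of 1 to 2 at 0.5 mM, bound to 0.02% bovine serum albumin, for 72 h. The 3 control samples received 0.02% albumin without fatty acid for the same time. All 6 samples were of passages 15 to 18 and shared a basal medium with insulin and hydrocortisone, a glucocorticoid. The series asks how such lipid loading changes liver genes, drug-metabolizing enzymes above all. Whether the replicates were separate cultures is not given. The p-values therefore cover the spread among these samples alone, and that spread may be technical.

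The liver is the main site where surplus amino acids are taken apart. A transaminase or dehydrogenase usually removes the nitrogen, which goes to glutamate and urea, and the carbon skeleton is then oxidised, largely in mitochondria, to feed the citric acid cycle, glucose or ketone bodies. Several of these enzymes are liver-restricted and respond to glucocorticoids, glucagon and feeding, tyrosine aminotransferase being the classical case, whereas the branched-chain enzymes are found in most tissues.

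Expression was given as FPKM, reads per kilobase of gene length scaled to the assigned reads of the library, so levels of different genes can be set side by side per length. The libraries held 8364570 to 15941353 assigned reads with fatty acid and 6331372 to 11821423 in controls, recovered from the FPKM values. Mitochondrially encoded genes took 9.15 to 11.9% of the reads with fatty acid and 12.2 to 15% in controls. Log2 fold changes are fatty acid minus control, ± SE, on log2(FPKM + 0.5), a scale that understates changes of low genes. Each adjusted p comes from limma with Benjamini-Hochberg adjustment over all genes tested, and a gene passed below 0.05. Over all genes tested 4.68% were lower and 8.22% higher. Of 16 hepatocyte markers, 12 were lower and 3 higher. Their summed level was 14812 to 15320 FPKM with fatty acid and 18801 to 19538 FPKM in controls. ALB alone held 6826 to 7439 FPKM of that sum with fatty acid and 11688 to 12320 FPKM in controls. The sum thus mainly follows ALB and does not describe the other markers. The 3 higher were SERPINA1, FGB and HP, with SERPINA1 at 2610 to 2721 FPKM with fatty acid and 2120 to 2322 FPKM in controls. Of 9 biliary and progenitor markers 5 were tested, and 1 of these was lower and none higher, with sums of 423.6 to 439.8 FPKM with fatty acid and 442.7 to 517.7 FPKM in controls. EPCAM and CFTR stayed under 0.1 FPKM in every library. Of 9 mesenchymal markers 7 were tested and 1 was higher, with sums of 118 to 126 FPKM with fatty acid and 101.4 to 110.9 FPKM in controls, COL1A2 and VIM being under 0.1 FPKM. Of 10 immune and endothelial markers 3 were tested and 1, KDR, was lower, with sums of 40.2 to 41.6 FPKM with fatty acid and 51.3 to 55.9 FPKM in controls, and PTPRC, CD163, CD3E, VWF and CDH5 were under 0.1 FPKM. Without KDR the sums of that list were 14.9 to 15.8 FPKM with fatty acid and 11.01 to 15.1 FPKM in controls. The 1 call in each of the biliary, mesenchymal and immune lists is not read as a result about the list. A marker listed under 0.1 FPKM is given as such and not read as absent, as for OAT below. The part of these markers, of the read depth and of the mitochondrial share in the results below was not tested. In bulk RNA, fewer cells of a type and less RNA per cell cannot be told apart.

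Fatty acid loading was accompanied by lower transcript levels of many of these enzymes. Of the 48 genes, 43 reached the mean of 0.5 FPKM needed for a test, and 21 of these were lower, 1 was higher and 21 did not pass. Among all 14661 genes tested 12.9% passed, 4.68% as lower and 8.22% as higher. The median log2 fold change was -0.21 over the 43 enzymes and 0.04 over all genes tested. Of the enzymes, 3 (TAT, AGXT and PRODH2) passed with a log2 fold change at or below -1, as did 0.668% of all genes tested. In 28 of the 43 every fatty acid library lay below every control library, as in 13.3% of all genes tested, and in 3 every fatty acid library lay above, as in 23.7%. Summed over the 48 genes, the level was 551.4, 571.4 and 562.1 FPKM with fatty acid and 704.7, 662.4 and 693.9 FPKM in controls. Without fatty acid replicate 1, 11 enzymes were lower and 0 higher by limma, beside 232 lower and 230 higher among all 14661 genes tested. At an unadjusted limma p under 0.05, 22 enzymes were then lower and 2 higher, but that count was not taken over all genes. Across all libraries left out in turn the lower enzymes numbered 11 to 19, beside 232 to 677 of all genes tested. In GENCODE 29 an antisense or other opposite-strand gene covers 5.04 to 22.1% of the exon bases of PCCB, GOT1, GLUD1, PRODH, GCDH, TAT, GPT, PIPOX and HPD, and whether counting used strand is not known. Rescaled to TPM, which moved the median of all genes tested to 0.18, 14 enzymes were lower and 2 higher. Of all genes tested, 408 were then lower and 2615 higher.

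**Figure D1:**
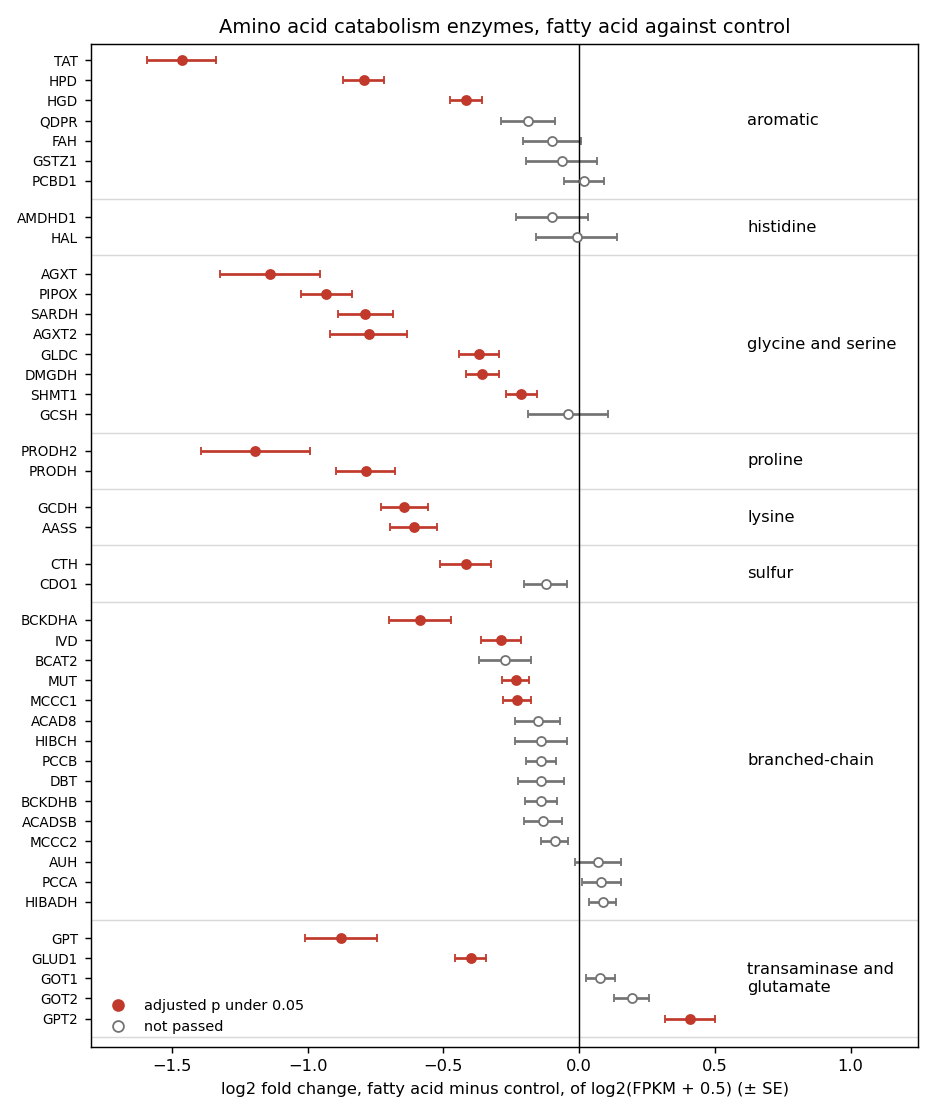
Log2 fold change (fatty acid minus control, horizontal axis, bars ± SE) of the 43 tested enzymes, one per row, grouped by route, with filled points for an adjusted p under 0.05. TAT lies farthest to the left at -1.46, the branched-chain enzymes lie between -0.59 and 0.09, and GPT2 is the filled point on the right, at 0.41.

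In the aromatic route 3 of 7 tested enzymes were lower, in the glycine and serine route 7 of 8, in the proline route 2 of 2, in the lysine route 2 of 2, in the sulfur route 1 of 2 and in the branched-chain route 4 of 15. The 2 tested histidine enzymes did not pass. The median log2 fold change was -0.19 in the aromatic, -0.57 in the glycine and serine, -0.99 in the proline, -0.63 in the lysine, -0.27 in the sulfur, -0.14 in the branched-chain and -0.05 in the histidine route. Among the transaminases and glutamate dehydrogenase 2 of 5 were lower and 1 was higher, with a median of 0.08. Differences between routes were not tested. Nor were those between the compartments and cofactor classes that follow, which share members with the routes. Of all genes tested, 4.68% were lower. By compartment, 13 of 27 mitochondrial enzymes, 6 of 14 cytosolic enzymes and both peroxisomal enzymes were lower. By cofactor, 7 of 9 flavin enzymes, 7 of 11 pyridoxal phosphate enzymes, 2 of 3 non-haem iron oxygenases, 1 of 4 subunits of biotin carboxylases and 4 of 16 others were lower, and the enzyme that was higher also carries pyridoxal phosphate.

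Tyrosine breakdown held the largest fall of the 43 tested enzymes. TAT encodes tyrosine aminotransferase, a glucocorticoid-induced liver enzyme that opens the route (chromosome 16, 71565660 to 71577130, GRCh38, minus strand). TAT had 1.37, 1.04 and 0.928 FPKM in the fatty acid libraries and 4.35, 3.77 and 3.68 FPKM in the control libraries. The groups did not overlap, and the mean fell by 71.7% (log2 fold change -1.46 ± 0.13, limma adjusted p = 0.000674). HPD encodes 4-hydroxyphenylpyruvate dioxygenase, which makes homogentisate (chromosome 12, 121839527 to 121863596). HPD had 53.3, 58.6 and 59.4 FPKM with fatty acid, against 97.2, 92.2 and 109.2 FPKM in controls, where it was the most abundant of the 48 per length. Its mean fell by 42.6% (log2 fold change -0.79 ± 0.08, limma adjusted p = 0.00102). HGD encodes homogentisate dioxygenase, the enzyme lost in alkaptonuria (chromosome 3, 120628173 to 120682571). HGD had 27.0, 27.0 and 28.2 FPKM with fatty acid and 39.3, 35.7 and 35.2 FPKM in controls, again without overlap, and fell by 25.5% (log2 fold change -0.42 ± 0.06, limma adjusted p = 0.00591).

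The last steps of the route did not pass. GSTZ1, maleylacetoacetate isomerase, averaged 1.60 ± 0.154 FPKM with fatty acid and 1.70 ± 0.292 FPKM in controls (SD, n = 3 each, limma adjusted p = 0.774). FAH, fumarylacetoacetate hydrolase, whose loss causes hereditary tyrosinaemia, had 13.9, 12.6 and 13.3 FPKM with fatty acid and 16.96, 13.3 and 12.8 FPKM in controls (limma adjusted p = 0.564), with overlapping groups. Read against FAH within each library, TAT stood at 0.0984, 0.083 and 0.0698 of the FAH level with fatty acid and at 0.257, 0.283 and 0.288 in controls. HPD stood at 3.83, 4.66 and 4.47 times FAH with fatty acid and at 5.73, 6.91 and 8.56 times in controls. HGD stood at 1.94, 2.15 and 2.12 times FAH with fatty acid and at 2.31, 2.68 and 2.76 times in controls. The fold changes thus went from largest to smallest over the first 3 steps, a pattern seen in the data and not tested. QDPR and PCBD1 regenerate the tetrahydrobiopterin that aromatic amino acid hydroxylation uses. Their log2 fold changes were -0.19 ± 0.10 (limma adjusted p = 0.247) and 0.02 ± 0.08 (0.896), and the sign of PCBD1 turned with scaling to nuclear reads, with quantile normalization, with median-of-ratios scaling and without fatty acid replicate 2 or control replicate 3. The signs of GSTZ1 and FAH turned after rescaling to TPM and without control replicate 1.

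**Figure D2:**
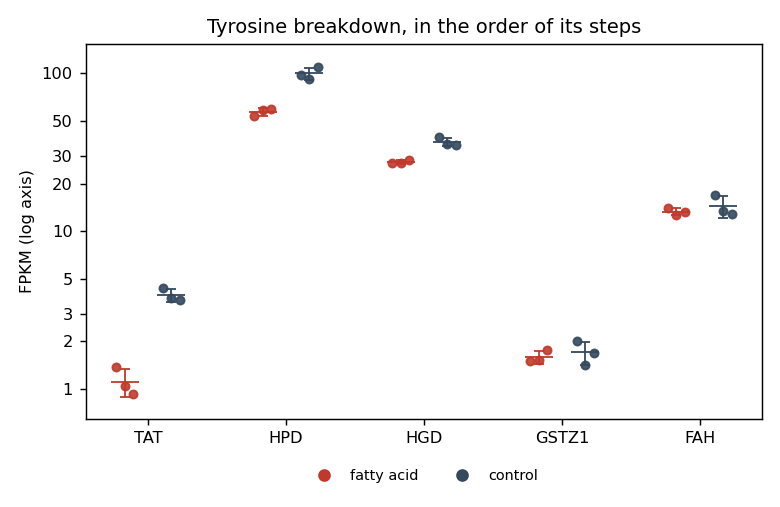
FPKM (log axis) of the tyrosine enzymes in the order of their steps, fatty acid libraries left of control libraries, with points for libraries and lines for mean ± SD. TAT, HPD and HGD are lower in every fatty acid library than in any control library, and GSTZ1 and FAH overlap.

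Among the enzymes of glycine, serine and their one-carbon relatives, 7 of 8 tested were lower. AGXT encodes alanine-glyoxylate aminotransferase, a peroxisomal liver enzyme that turns glyoxylate into glycine and is deficient in primary hyperoxaluria (chromosome 2, 240868479 to 240880502). AGXT had 8.79, 6.43 and 9.13 FPKM with fatty acid and 22.7, 14.2 and 19.0 FPKM in controls. It fell by 56.4% (log2 fold change -1.14 ± 0.18, limma adjusted p = 0.0103), the lowest library of each group being replicate 2. PIPOX, the peroxisomal sarcosine and pipecolate oxidase (chromosome 17, 28950513 to 29057220), had 2.71, 3.02 and 3.51 FPKM with fatty acid and 6.27, 6.19 and 6.44 FPKM in controls. PIPOX fell by 51.1% (log2 fold change -0.93 ± 0.09, limma adjusted p = 0.00136), and its control libraries lay close together. SARDH, mitochondrial sarcosine dehydrogenase (chromosome 9, 133663560 to 133739955), had 1.59, 1.78 and 1.65 FPKM with fatty acid and 3.68, 3.02 and 3.09 FPKM in controls, and fell by 48.7% (log2 fold change -0.79 ± 0.10, limma adjusted p = 0.00424). DMGDH, the dimethylglycine dehydrogenase one step upstream, had 9.08, 9.25 and 8.55 FPKM with fatty acid and 11.9, 11.8 and 11.2 FPKM in controls. It fell by 22.9% (log2 fold change -0.36 ± 0.06, limma adjusted p = 0.0121).

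AGXT2, the mitochondrial aminotransferase that also acts on dimethylarginines, had 1.09, 1.36 and 0.857 FPKM with fatty acid and 2.09, 2.12 and 2.46 FPKM in controls (log2 fold change -0.78 ± 0.14, limma adjusted p = 0.0156). GLDC, the decarboxylating subunit of the mitochondrial glycine cleavage system, had 8.83, 8.33 and 9.05 FPKM with fatty acid and 10.6, 11.5 and 12.3 FPKM in controls (log2 fold change -0.37 ± 0.07, limma adjusted p = 0.0199). For both, every fatty acid library lay below every control library. SHMT1, the cytosolic serine hydroxymethyltransferase, averaged 12.2 ± 0.443 FPKM with fatty acid and 14.3 ± 0.349 FPKM in controls (SD, n = 3 each). Its log2 fold change was -0.21 ± 0.06 (limma adjusted p = 0.048). No call of SHMT1 remained when any 1 of the 6 libraries was left out (limma adjusted p 0.0622 to 0.177) or after rescaling to TPM (0.458). The same held with no filter (0.0641), without the intensity trend (0.0895), with the replicate number as a block (0.0781) and after thinning (0.0782), by limma. GLDC lost its call when fatty acid replicate 1 or 2 or control replicate 3 was left out (limma adjusted p 0.0812, 0.0901 and 0.0549). AGXT2 lost its call when fatty acid replicate 1 or control replicate 3 was left out (0.0669 and 0.054), and DMGDH when fatty acid replicate 1 was (0.0597), by limma. After rescaling to TPM the limma adjusted p was 0.0576 for GLDC and 0.101 for DMGDH, and with no filter it was 0.0528 for AGXT2.

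GCSH, the lipoyl-carrying subunit that works with GLDC, had 4.64, 4.52 and 4.54 FPKM with fatty acid and 5.46, 3.53 and 5.40 FPKM in controls (log2 fold change -0.04 ± 0.15, limma adjusted p = 0.879). The groups overlapped through control replicate 2, its sign turned after rescaling to TPM and without control replicate 1 or 3, and GCSH has processed pseudogenes that may share its reads, besides the 12% of its exon bases that GENCODE 29 also gives to other genes on its strand. AMT, the aminomethyltransferase of the same system, was listed at 0 in all fatty acid libraries and in control replicates 1 and 2, and at 0.044 FPKM in control replicate 3. In GENCODE 29, 63.1% of its exon bases are shared with another gene on its strand, and that gene was listed at 0.053, 0 and 0 FPKM with fatty acid and at 0.066, 0.046 and 0.037 FPKM in controls. SDS, the liver serine dehydratase, had 0.119, 0.139 and 0.292 FPKM with fatty acid and 0.186, 0.158 and 0.197 FPKM in controls, and was not tested.

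In the proline route both dehydrogenases were lower. PRODH2 encodes hydroxyproline dehydrogenase, a mitochondrial flavin enzyme of liver and kidney (chromosome 19, 35799988 to 35813299). PRODH2 had 3.42, 3.11 and 3.77 FPKM with fatty acid and 10.7, 5.84 and 9.63 FPKM in controls. It fell by 60.7% (log2 fold change -1.19 ± 0.20, limma adjusted p = 0.0118), though control replicate 2 lay far below the other control libraries, and the call was lost without fatty acid replicate 1 or 2 (limma adjusted p 0.0571 and 0.0602). PRODH, proline dehydrogenase, which starts proline oxidation (chromosome 22, 18912777 to 18936553), had 5.67, 5.01 and 5.46 FPKM with fatty acid and 11.4, 8.77 and 8.91 FPKM in controls. PRODH fell by 44.5% without overlap of the groups (log2 fold change -0.79 ± 0.11, limma adjusted p = 0.00557). The log2 ratio of PRODH2 to PRODH was -0.58 ± 0.09 with fatty acid and -0.18 ± 0.34 in controls (SD, n = 3 each, exact two-sided permutation p = 0.2). OAT, ornithine aminotransferase, a mitochondrial enzyme of most tissues, was listed at 0.035, 0 and 0.019 FPKM with fatty acid and at 0, 0 and 0.025 FPKM in controls. No annotated exon of another gene overlaps OAT in GENCODE 29. POLR2F, an RNA polymerase II subunit gene looked up after these values were seen, was likewise listed at 0 in 5 libraries and 0.01 FPKM in the other, so a listing at 0 is given as such and not read as absence.

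Promoter windows of 250 bases before a RefSeq start were at hand for 41 of the 48 genes (GRCh38.p14, 47 windows). TAT, HGD, GPT, GPT2, PRODH, BCAT2 and HIBADH had no window and were not searched. The windows at hand were searched on both strands for letters bound by HNF1, HNF4, C/EBP or the glucocorticoid receptor. That choice was made after the values were seen. The HNF1 motif, of which the capitals of PRODH2 and PCBD1 below are 2 forms, occurred in PRODH2 and PCBD1 and in 0.296% of 35116 promoter windows. The HNF4 letters CAAAGTCCA occurred in AGXT2 and in 0.325% of windows. The C/EBP letters TTGCNNAA occurred in AASS, ACADSB, HAL, PCCA and SARDH, and in 9.05% of windows, and the glucocorticoid receptor half-site TGTTCT in AGXT2, AMT, HAL and HPD, and in 12.4%. Rarer letters lay in windows of an enzyme with one of the largest falls (PRODH2), a lower enzyme (AGXT2) and one that did not pass (PCBD1). These 3 windows are shown for that reason, with the motif in capitals. They are given 5′ to 3′ on the gene's own strand, the minus strand in each case, at chr19:35812909-35812988, chr5:35047953-35047982 and chr10:70888623-70888652.
PRODH2: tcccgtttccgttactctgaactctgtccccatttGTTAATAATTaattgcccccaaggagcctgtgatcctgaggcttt
AGXT2: atcttaatctCAAAGTCCAgcaggatagtg
PCBD1: ggctggggacGTTAATCATTaccggagggc
The capitals begin 108 bases before the RefSeq start of the window in PRODH2, 23 in AGXT2 and 77 in PCBD1. The deposited spans of these minus-strand genes reach further upstream, to 35813299, 35048135 and 70888784 in the same order. All 3 stretches thus lie inside the deposited spans. The stretches of AGXT2 and PCBD1 overlap an annotated exon, and that of PRODH2 does not. PCBD1 also serves as a dimerization cofactor of HNF1. A match describes the letters only, and binding was not measured.

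Both lysine enzymes were lower. AASS encodes the bifunctional aminoadipic semialdehyde synthase that opens the mitochondrial lysine route (chromosome 7, 122075647 to 122144280). AASS had 11.02, 10.8 and 11.9 FPKM with fatty acid and 15.3, 18.4 and 18.7 FPKM in controls, and fell by 35.7% (log2 fold change -0.61 ± 0.09, limma adjusted p = 0.00647). GCDH, glutaryl-CoA dehydrogenase, a later flavin step deficient in glutaric aciduria (chromosome 19, 12891026 to 12914207), had 3.32, 3.54 and 3.25 FPKM with fatty acid and 6.15, 5.08 and 5.46 FPKM in controls. It fell by 39.5% (log2 fold change -0.65 ± 0.09, limma adjusted p = 0.00507). For both, all fatty acid libraries lay below all control libraries, and the calls were kept under each of the 18 alternatives tried. Of the sulfur enzymes, CTH, cystathionine gamma-lyase, which makes cysteine and hydrogen sulfide, had 4.06, 5.19 and 4.63 FPKM with fatty acid and 6.52, 6.02 and 6.45 FPKM in controls. CTH fell by 26.9% (log2 fold change -0.42 ± 0.09, limma adjusted p = 0.0294). The call was lost without fatty acid replicate 1 or 3 or control replicate 1 or 3 (limma adjusted p 0.101, 0.0755, 0.059 and 0.079). It was also lost after rescaling to TPM (0.0799), with no filter (0.0704) and without the intensity trend (0.0541). With the replicate number as a block the limma adjusted p was 0.0557. CDO1, cysteine dioxygenase, averaged 4.05 ± 0.0579 FPKM with fatty acid and 4.47 ± 0.364 FPKM in controls (SD, n = 3 each) and did not pass (limma adjusted p = 0.326). Its sign turned when all libraries were thinned to the shallowest.

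**Figure D3:**
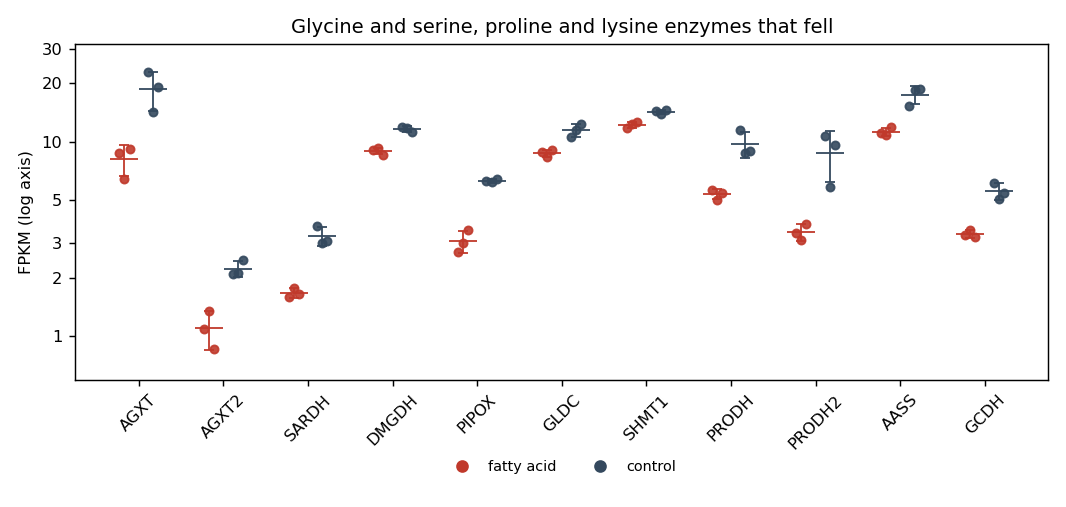
FPKM (log axis) of the 11 lower enzymes of the glycine and serine, proline and lysine routes, fatty acid libraries left of control libraries, with points for libraries and lines for mean ± SD. No fatty acid library reaches a control library in any of the 11, and the control libraries of AGXT and PRODH2 are the most widely spread.

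In the histidine route neither of the 2 tested enzymes passed. HAL, histidine ammonia-lyase, which makes urocanate, had 1.46, 1.03 and 1.39 FPKM with fatty acid and 1.54, 1.14 and 1.23 FPKM in controls (log2 fold change -0.01 ± 0.15, limma adjusted p = 0.977). AMDHD1, imidazolonepropionase, the third enzyme of the route, had 2.36, 1.87 and 1.92 FPKM with fatty acid and 2.41, 2.47 and 1.83 FPKM in controls (log2 fold change -0.10 ± 0.13, limma adjusted p = 0.646). Both pairs of groups overlapped, neither gene had an unadjusted p under 0.05, and 0 passed with limma voom on the recovered reads. The sign of HAL turned with quantile normalization, and the signs of both after rescaling to TPM. The sign of HAL also turned without fatty acid replicate 2 or control replicate 1. UROC1, urocanate hydratase, was listed at 0.036, 0 and 0.019 FPKM with fatty acid and 0.034, 0.047 and 0 FPKM in controls, and FTCD, formimidoyltransferase cyclodeaminase, at 0 in all 6 libraries. Neither was tested.

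Most branched-chain enzymes did not pass. Leucine, isoleucine and valine share a transaminase and the mitochondrial branched-chain ketoacid dehydrogenase complex, and then take separate routes. Of 15 tested enzymes 4 were lower and 11 did not pass, those 11 having log2 fold changes of -0.27 to 0.09. Summed over the route, the level was 208.3, 212.4 and 204.2 FPKM with fatty acid and 220.6, 225.6 and 223.9 FPKM in controls. At the shared steps, BCAT2, the mitochondrial transaminase, had 4.36, 3.899 and 4.68 FPKM with fatty acid and 5.88, 4.89 and 5.18 FPKM in controls (log2 fold change -0.27 ± 0.10, limma adjusted p = 0.102). BCKDHA, the alpha subunit of the dehydrogenase complex (chromosome 19, 41397460 to 41425005), had 1.84, 2.14 and 1.93 FPKM with fatty acid and 3.69, 3.22 and 2.76 FPKM in controls. BCKDHA fell by 38.9% (log2 fold change -0.59 ± 0.11, limma adjusted p = 0.0196), a call lost without any 1 of fatty acid replicates 1, 2 and 3 (limma adjusted p 0.0858, 0.0595 and 0.0595) and with no filter (0.0579). In GENCODE 29, 63.8% of its exon bases are shared with another gene on the same strand, so its 40 to 86 reads per library may be only part of its own. Its partners BCKDHB, the beta subunit, and DBT, the acyltransferase core, had log2 fold changes of -0.14 ± 0.06 and -0.14 ± 0.09 (limma adjusted p 0.159 and 0.308). The log2 ratio of BCKDHB to BCKDHA was 2.43 ± 0.10 with fatty acid and 1.98 ± 0.25 in controls, with no overlap (SD, n = 3 each). The exact two-sided permutation p was 0.1, the smallest that 3 against 3 allows, and 0.167 adjusted over the 5 ratios compared.

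Beyond the shared steps, 2 leucine enzymes and 1 late enzyme of the valine and isoleucine routes were lower by small amounts. IVD, isovaleryl-CoA dehydrogenase, had 17.3, 16.1 and 15.4 FPKM with fatty acid and 21.6, 18.5 and 19.9 FPKM in controls (log2 fold change -0.29 ± 0.07, limma adjusted p = 0.0431). MCCC1, the biotin-bearing subunit of methylcrotonyl-CoA carboxylase, had 19.9, 20.7 and 19.6 FPKM with fatty acid and 23.8, 22.9 and 24.1 FPKM in controls (log2 fold change -0.23 ± 0.05, limma adjusted p = 0.0308). MUT, the cobalamin-dependent methylmalonyl-CoA mutase, had 17.7, 18.4 and 17.5 FPKM with fatty acid and 20.9, 21.1 and 21.4 FPKM in controls (log2 fold change -0.23 ± 0.05, limma adjusted p = 0.0264). The groups of these 3 genes did not overlap, but the calls were fragile. IVD was not called without any 1 fatty acid replicate or without control replicate 1 or 3 (limma adjusted p 0.0693 to 0.143), MCCC1 without any 1 fatty acid replicate or control replicate 3 (0.078 to 0.125), and MUT without any 1 fatty acid replicate or control replicate 2 or 3 (0.0506 to 0.117). After rescaling to TPM the limma adjusted p was 0.272 for IVD, 0.411 for MCCC1 and 0.371 for MUT. Without the intensity trend it was 0.0845, 0.0743 and 0.066 in the same order. After thinning to the shallowest library it was 0.0674, 0.0565 and 0.0868. With the replicate number as a block it was 0.0637 for MCCC1 and 0.0537 for MUT, and with no filter 0.087 for IVD.

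The other branched-chain enzymes did not pass. MCCC2, the partner subunit of MCCC1, had a log2 fold change of -0.09 ± 0.05 (limma adjusted p = 0.273), and AUH, the methylglutaconyl-CoA hydratase after it, of 0.07 ± 0.08 (0.612). ACADSB and ACAD8, the acyl-CoA dehydrogenases of isoleucine and valine, had -0.13 ± 0.07 (0.248) and -0.15 ± 0.08 (0.258). HIBCH and HIBADH, which carry the valine carbon on through 3-hydroxyisobutyrate, had -0.14 ± 0.09 (0.351) and 0.09 ± 0.05 (0.288). HIBADH was the most abundant of the 15 per length, at 55.0, 57.4 and 54.9 FPKM with fatty acid and 50.2, 54.1 and 53.2 FPKM in controls. PCCA and PCCB, the subunits of propionyl-CoA carboxylase, had log2 fold changes of 0.08 ± 0.07 (0.476) and -0.14 ± 0.06 (0.142), each p being limma's adjusted p. The sign of MCCC2 turned after rescaling to TPM and that of AUH without control replicate 1.

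**Figure D4:**
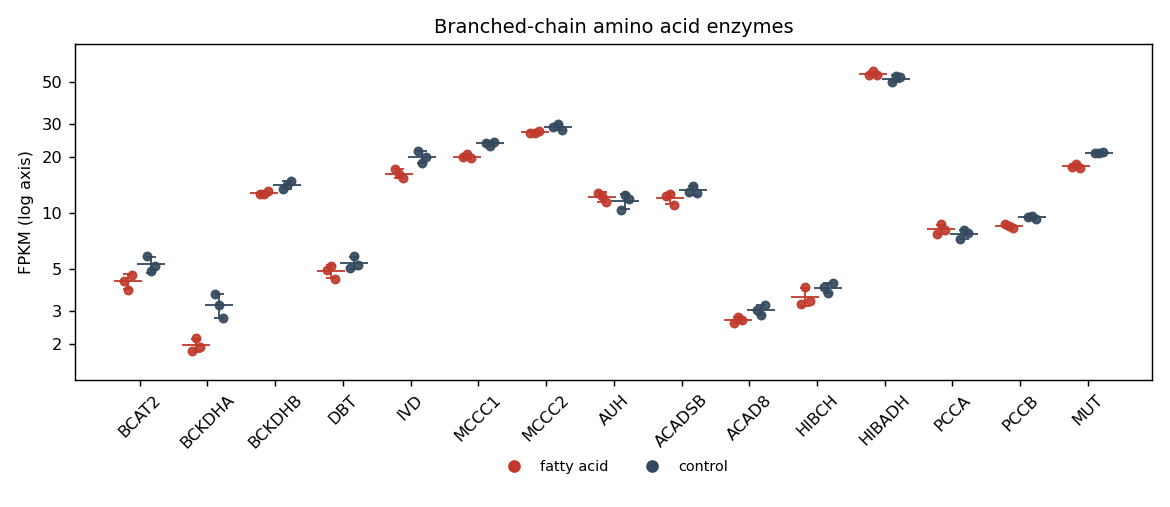
FPKM (log axis) of the 15 branched-chain enzymes, fatty acid libraries left of control libraries, with points for libraries and lines for mean ± SD. Most pairs of groups lie close together, and BCKDHA shows the widest gap.

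The transaminases moved in different directions. GPT, the cytosolic alanine aminotransferase measured in blood as a sign of liver injury (chromosome 8, 144502973 to 144507174), had 3.25, 2.68 and 3.76 FPKM with fatty acid and 7.16, 5.44 and 6.42 FPKM in controls. GPT fell by 49.1% (log2 fold change -0.88 ± 0.13, limma adjusted p = 0.00815). GPT2, its mitochondrial paralogue (chromosome 16, 46884378 to 46931297), had 4.42, 4.87 and 4.38 FPKM with fatty acid and 3.74, 3.06 and 3.17 FPKM in controls. GPT2 was the only enzyme that passed as higher, its mean being up by 37.2% (log2 fold change 0.41 ± 0.09, limma adjusted p = 0.0315). Neither the groups of GPT nor those of GPT2 overlapped. The ratio of GPT2 to GPT in FPKM was 1.36, 1.82 and 1.17 in the fatty acid libraries and 0.522, 0.562 and 0.494 in the control libraries, so the more abundant paralogue per length was GPT2 in every fatty acid library and GPT in every control library. The log2 ratio differed by 1.28 (exact two-sided permutation p = 0.1, the smallest possible, and 0.167 adjusted over the 5 ratios compared). GPT was called under every alternative. GPT2 was not called without any 1 of fatty acid replicates 1, 2 and 3 and control replicates 2 and 3 (limma adjusted p 0.102, 0.126, 0.0699, 0.0661 and 0.0848). Nor was GPT2 called with no filter (0.0749) or with the replicate number as a block (0.0585), by limma. Its log2 fold change stayed between 0.36 and 0.43 under these settings.

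The aspartate aminotransferases did not follow that split. GOT1, the cytosolic enzyme, had 52.0, 55.9 and 53.0 FPKM with fatty acid and 52.6, 49.7 and 49.9 FPKM in controls (log2 fold change 0.08 ± 0.05, limma adjusted p = 0.343), with overlapping groups. GOT2, the mitochondrial enzyme, had 26.7, 30.1 and 27.6 FPKM with fatty acid and 24.5, 25.6 and 23.5 FPKM in controls (log2 fold change 0.19 ± 0.06, limma adjusted p = 0.0869). GOT2 did pass, as higher, after rescaling to TPM (0.0327) and with limma voom on the recovered reads (0.046). The log2 ratio of GOT2 to GOT1 was -0.92 ± 0.03 with fatty acid and -1.03 ± 0.08 in controls (SD, n = 3 each, exact two-sided permutation p = 0.2). GLUD1, glutamate dehydrogenase, which releases ammonia from glutamate in mitochondria (chromosome 10, 87050486 to 87094866), had 40.0, 41.8 and 42.0 FPKM with fatty acid and 56.9, 51.1 and 55.9 FPKM in controls. GLUD1 fell by 24.5% without overlap (log2 fold change -0.40 ± 0.06, limma adjusted p = 0.00647), a call kept under every alternative. Its near-identical retrogene GLUD2, which may share reads with it, was listed at 1.103, 1.34 and 1.08 FPKM with fatty acid and 0.761, 1.33 and 1.46 FPKM in controls.

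**Figure D5:**
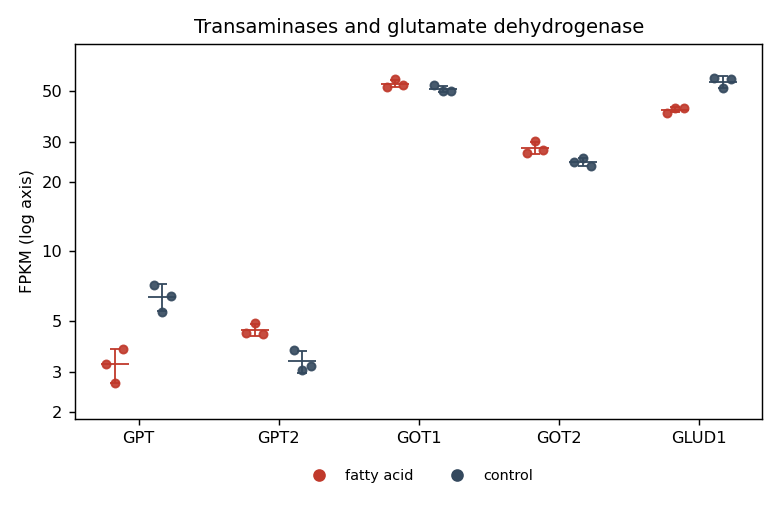
FPKM (log axis) of the transaminases and glutamate dehydrogenase, fatty acid libraries left of control libraries, with points for libraries and lines for mean ± SD. GPT lies below and GPT2 above its control libraries in all 3 fatty acid libraries, GOT1 overlaps, and GLUD1 is lower.

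A list of 48 other genes of the same pathways holds steps before, after or beside these enzymes. Of 46 tested, 11 were lower, 3 higher and 32 did not pass, with a median log2 fold change of -0.18. Over all genes tested 4.68% were lower, beside 11 of 46 here, and 8.22% were higher, beside 3 of 46. The higher count is near the share of all genes and is not read as a result about the list. ABAT, the mitochondrial GABA transaminase that also handles a valine intermediate, had 7.13, 7.66 and 7.90 FPKM with fatty acid and 15.2, 14.9 and 15.3 FPKM in controls (log2 fold change -0.96 ± 0.06, limma adjusted p = 0.000176). ALDH6A1, the methylmalonate semialdehyde dehydrogenase of valine breakdown, had 24.0, 24.1 and 24.1 FPKM with fatty acid and 35.0, 35.6 and 35.7 FPKM in controls (log2 fold change -0.55 ± 0.05, limma adjusted p = 0.000546). Both pairs of groups were tight and well apart, and ALDH6A1 follows directly on HIBADH, which did not pass. DAO, the peroxisomal D-amino acid oxidase, averaged 0.624 ± 0.133 FPKM with fatty acid and 2.17 ± 0.211 FPKM in controls (SD, n = 3 each, limma adjusted p = 0.00196). HOGA1, the aldolase that splits the product of hydroxyproline breakdown started by PRODH2, averaged 4.96 ± 0.334 FPKM with fatty acid and 9.15 ± 1.28 FPKM in controls (SD, n = 3 each, limma adjusted p = 0.00474).

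The 3 higher genes serve several routes, and their number is near the share of all genes. MMADHC, a cobalamin-trafficking protein, had a log2 fold change of 0.32 ± 0.05 (limma adjusted p = 0.0124). ETFA, a subunit of an electron acceptor of the flavin dehydrogenases of fatty acids and amino acids, had 0.31 ± 0.06 (limma adjusted p = 0.0251). DLD, the dehydrogenase subunit shared by the ketoacid complexes and the glycine cleavage system, had 0.23 ± 0.06 (limma adjusted p = 0.0423). ETFB, the partner subunit of ETFA, had -0.14 ± 0.06 and did not pass (limma adjusted p = 0.146), though every fatty acid library lay below every control library. MMADHC lost its call when fatty acid replicate 1 or 2 was left out (limma adjusted p 0.0716 and 0.0617), and ETFA without any 1 fatty acid replicate (0.071, 0.108 and 0.0773). ETFA also lost its call with quantile normalization (0.0574), scaling to nuclear reads (0.0573), thinning (0.0734), no filter (0.0531) and no intensity trend (0.0635), by limma. DLD was not called without any 1 fatty acid replicate or control replicate 1 or 3 (0.0524 to 0.153), nor after thinning (0.0815), with no filter (0.0726) or no intensity trend (0.0945), or scaled to nuclear reads (0.109), by quantiles (0.151) or by median of ratios (0.0983). Without fatty acid replicate 1 or 2 the called genes of these 48 numbered 7, in place of 14. Of all genes tested, 462 and 486 were then called, in place of 1891.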

How the data were processed

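Cells had 14 days of growth, 14 of differentiation and 5 in basal medium, and 100 ng of RNA went into each stranded mRNA library, per the labels' protocols. Tools named in the submitters' processing notes are featureCounts, STAR 2.5.2 and Subread 1.5.1, with build GRCh38. The sources used here do not give the strand setting. The authors deposited FPKM values for 58037 genes, with gene lengths per the file headers. FPKM times length came out as whole multiples of 1 read for 100% of values fine enough to tell (tolerance 0.02 reads), which gave the depths. No pair of replicates agreed within sampling noise.

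Groups came from the sample titles. The test took genes averaging 0.5 FPKM or more and used limma 3.58.1 (R 4.3.3, intensity trend) on log2(FPKM + 0.5), fatty acid against control, all 6 libraries, no covariate, with Benjamini-Hochberg adjustment over all genes tested and a threshold of 0.05. Ratios of 2 genes used an exact permutation test over samples. The 48 enzymes, routes and lists were chosen with earlier results of these data known. All 48 were named, and of the other pathway genes up to 4 called in each direction with the smallest adjusted p. Exon overlaps came from GENCODE 29 (GRCh38), which may not be the authors' release. Figures were drawn with matplotlib 3.10.9.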

Additional observations from a re-analysis of the deposited data

How the results depend on the processing

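Of the 22 called enzymes, 11 passed under each of 18 alternatives (TAT, HPD, HGD, AGXT, SARDH, PIPOX, PRODH, GPT, GLUD1, AASS and GCDH), and 0 changed sign under any of them. Where a call was lost the cause was not tested. All genes called numbered 1891, against 977 with no filter, 3023 after rescaling to TPM, 1101 without the intensity trend, 2999 with limma voom on recovered reads, 1254 after thinning to the shallowest library (chosen after seeing the data), and 462 to 1612 with 1 library left out. They split into 1205 higher and 686 lower as deposited, 779 and 818 with median-of-ratios scaling, 758 and 772 with quantile normalization, 710 and 835 with scaling to nuclear reads, and 2615 and 408 after rescaling to TPM. Lower enzymes numbered 11 to 19 with 1 library left out, and 16 with no filter, 14 after rescaling to TPM, 16 without the trend and 17 after thinning, in place of 21. Higher enzymes numbered 0 with no filter (2 at an unadjusted limma p under 0.05), 2 after rescaling to TPM and 2 with voom. With 1 library left out they numbered 0 to 1 (1 to 2 at an unadjusted limma p under 0.05). Unadjusted counts over all genes were not taken. Other pathway genes called numbered 9 with no filter, 8 without the trend and 7 to 16 with 1 library left out, in place of 14.

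With the replicate number as a block, 17 enzymes were lower and 0 higher (2 at an unadjusted limma p under 0.05). The numbers were not shown to pair the samples: deviations of same-numbered libraries correlated at 0.012, 0.084 and 0.022, and fatty acid replicate 3 correlated best with control replicate 1 (0.073).

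Signs turned only among enzymes that had not passed. After rescaling to TPM the log2 fold change was 0.03 for FAH, 0.05 for GSTZ1, 0.11 for HAL, 0.01 for AMDHD1, 0.09 for GCSH and 0.04 for MCCC2. With 1 library left out in turn it ranged over -0.18 to 0.02 for FAH, -0.16 to 0.03 for GSTZ1, -0.08 to 0.10 for HAL, -0.23 to 0.06 for GCSH, -0.01 to 0.12 for AUH and -0.04 to 0.07 for PCBD1. PCBD1 had -0.02 with median-of-ratios scaling, -0.03 with quantile normalization, and -0.04 with scaling to nuclear reads. HAL had 0.04 with quantile normalization, and CDO1 0.03 after thinning. Depth limits AMDHD1, BCKDHA, HAL and AGXT2 most, with at most 82, 86, 114 and 115 reads in any library. The log2 ratio of GLDC to AMT differed by -0.33, fatty acid minus control, which says nothing of AMT, which was listed at 0 in 5 libraries.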
